A study of Mus musculus with 56 samples.

Results

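Thymocytes are the immune cells that thymic epithelial cells (TECs) are sorted away from, and the transcripts of 34 T-lineage genes were followed here through 56 RNA-seq samples of sorted TECs. The 34 genes were listed by name as genes known from thymocytes, by a rule that uses no measured value. Earlier results of these data were known when they were chosen. All 34 were found among the 50600 genes of the deposited tables. They were placed in 6 groups by role: genes of all leukocytes (Ptprc, Coro1a and Ikzf1), the T cell receptor complex and its proximal signalling (Cd3d, Cd3e, Cd3g, Cd247, Lck, Lat, Zap70, Rhoh and Thy1), early genes of recombination and the pre-TCR (Rag1, Rag2, Dntt and Ptcra), genes high in CD4+CD8+ double-positive cells (Cd4, Cd8a, Cd8b1, Themis, Arpp21, Satb1 and Ikzf3), genes that rise after selection or in mature cells (Cd2, Cd5, Cd6, Cd27, Cd28, Sh2d1a and Tox), and lineage transcription factors (Tcf7, Bcl11b, Gata3 and Ets1).

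The study followed the thymus through the involution of pregnancy and its regrowth after birth in B6.SJL female mice mated with BALB/cJ males, whose pups were taken away at birth. Cortical TECs (cTECs, UEA1-) and medullary TECs (mTECs, UEA1+) were sorted as EpCAM+CD45- cells, so that cells carrying the leukocyte antigen CD45 were gated out, and each sample came from 1 mouse. The groups were non-pregnant controls (NPC), 2 days before birth (D-2, gestation day 18), the day of birth (D0) and days 1 to 28 after it (D1 to D28), which gave 28 samples of each cell type. There were 3 samples of each cell type at D-2, D0, D3, D6, D12 and in NPC, and 1 at each of the other 10 time points. The ages of the mice were not given in the sources used here. Values are FPKM, fragment counts scaled to gene length and sequencing depth. A group value is the sum of the FPKM of its genes in 1 sample.

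T cell precursors enter the thymus without CD4 or CD8, rearrange their T cell receptor beta gene with the RAG recombinase, and test its product in a pre-TCR with the pre-T alpha chain. They then become double-positive cells, which fill the cortex, rearrange the alpha gene and are selected on cTECs. Survivors move to the medulla as CD4 or CD8 single-positive cells, and thymocytes at several of these stages are held in tight contact with TECs, in part within complexes known as thymic nurse cells.

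Total expected counts per sample ran from 4561208 to 108547384, with a median of 17972567. A set of 4 libraries had few detected genes, between 9998 and 13154 at an FPKM of 0.5 or more, against 13696 to 18639 in the other 52. These were cTEC D3 replicate 2, cTEC D20 and mTEC D3 replicates 1 and 2, and 9 to 19 of the 34 thymocyte genes had no count in them, against 0 to 12 in the others. Over all time points the sorted cells carried the markers of their labels. Of 7 cTEC genes led by Ctsl, Ccl25 and Prss16, all 7 were higher in cTECs over all time points by limma-voom, and 6 of 7 mTEC genes led by Ccl21a, Krt14 and Fezf2 were lower. At D-2 the labels were less well separated. There the 7 cTEC genes summed on average to 1734 FPKM in cTECs and 1089 in mTECs, and the samples overlapped. The 7 mTEC genes summed on average to 5252 FPKM in cTECs and 11070 in mTECs at D-2.

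**Figure D1:**
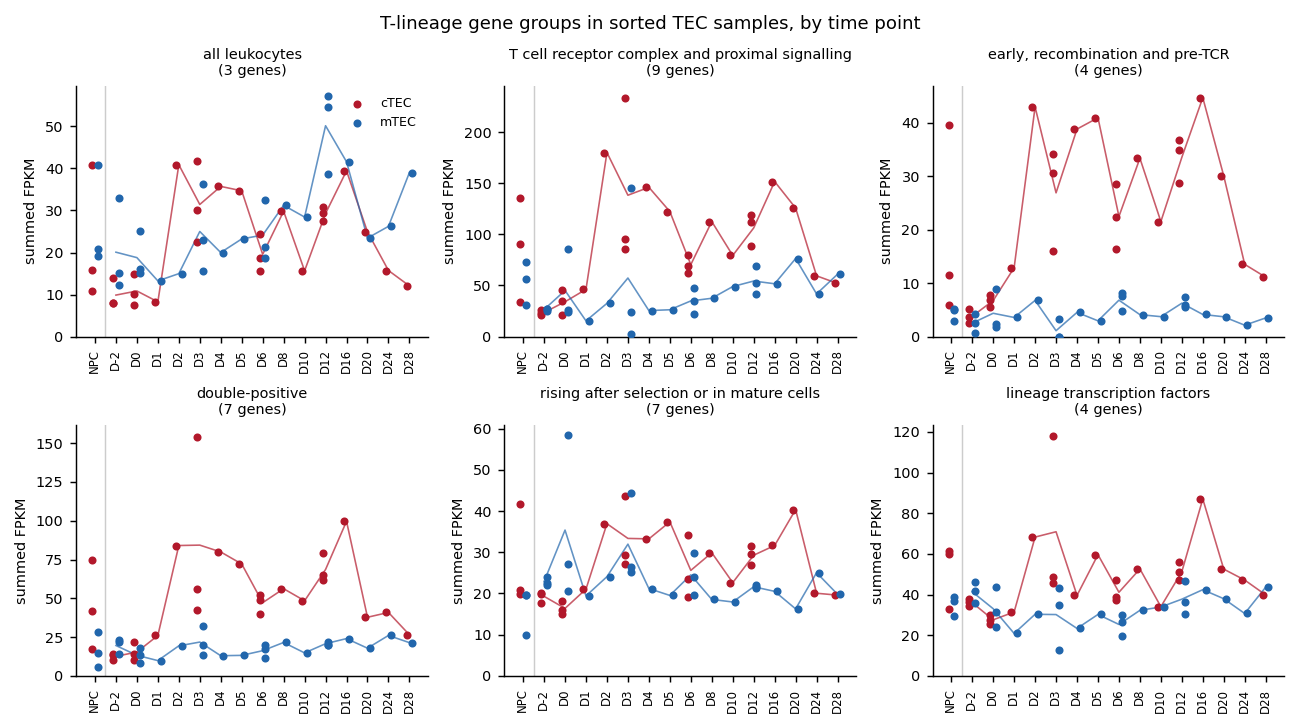
Summed FPKM of the 6 groups of thymocyte genes in each of the 56 samples, 1 panel per group, with the time point on the horizontal axis and NPC set apart on the left. Points are samples and lines join time-point means, cTECs in 1 colour and mTECs in the other. In the panel of the early genes the 19 cTEC samples from D1 on lie between 11.1 and 44.7, above the highest mTEC sample at 8.98.

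Thymocyte transcripts were low in cTECs just before birth and higher from D1 on. The 34 genes summed to 107.1, 104.0 and 104.1 FPKM in the 3 cTEC samples at D-2, to 226.3 on average at D6 and to 318.2 at D12, which is 2.15 and 3.03 times the D-2 mean. The 19 cTEC samples from D1 to D28 lay between 145.9 and 622.1 with a median of 298.9, and all 19 were above all 3 samples at D-2. The highest of them, 622.1, was the few-gene library cTEC D3 replicate 2. The 3 NPC samples of cTECs spread widely, at 393.6, 239.7 and 122.1 FPKM, and also lay above D-2. At D0 the range was 91.6 to 136.0, which overlapped D-2. For mTECs the mean sum stood at 132.9 (D-2), 131.9 (D6) and 190.8 (D12), and all 28 samples lay between 82.3 and 270.8. Of the 19 cTEC samples from D1 on, 11 were above the highest mTEC sample. In TPM, the length-scaled share of all transcripts, the cTEC sums were 173.4 before birth (D-2), 381.9 at D6 and 509.1 at D12, and the mTEC sums were 218.8 at D-2 and 280.2 at D12. In such bulk samples, fewer thymocytes and less RNA per thymocyte cannot be told apart, and the cells that the transcripts came from were not identified.

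The groups of genes differed in how far they stood above D-2. In cTECs the early genes summed to 3.79 ± 1.38 FPKM at D-2 (SD, n = 3), to 22.5 ± 6.11 at D6 and to 33.6 ± 4.24 at D12, which is 5.94 and 8.86 times the D-2 mean. The double-positive genes went from 12.6 ± 1.97 to 47.2 ± 6.37 and 68.6 ± 9.13 FPKM, or 3.75 and 5.45 times, and the receptor complex genes from 23.5 ± 2.62 to 70.4 ± 9.12 and 106.3 ± 15.8, or 2.99 and 4.52 times. For these 3 groups every D6 and D12 sample was above every D-2 sample. The genes of mature cells summed to 19.3 ± 1.32 FPKM (D-2), 25.6 ± 7.78 (D6) and 29.3 ± 2.30 (D12), or 1.33 and 1.52 times, and the lineage transcription factors to 36.02 ± 1.70, 41.1 ± 5.46 and 51.2 ± 4.42 FPKM, or 1.14 and 1.42 times. For both groups the D6 samples overlapped those of D-2 and the D12 samples were all above them. The genes of all leukocytes stood at 1.98 and 2.97 times their D-2 mean, with no overlap. In mTECs the early genes summed to 2.51 ± 1.76, 6.82 ± 1.74 and 6.25 ± 1.02 FPKM at D-2, D6 and D12, and the double-positive genes to 19.6 ± 4.95, 16.2 ± 4.26 and 20.8 ± 1.02. The receptor complex genes of mTECs reached 54.3 ± 14.1 FPKM at D12 from 26.4 ± 1.16 at D-2.

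The early genes had a larger median difference between the cell types over all time points, 2.75 on the log2 scale, than the other 5 groups. RAG1 and RAG2 form the recombinase that cuts the receptor genes, Dntt encodes terminal deoxynucleotidyl transferase, which adds bases at the joins, and Ptcra encodes the pre-T alpha chain. Double-positive cells also rearrange a receptor gene, so the recombination genes do not mark the early stage alone. Ptcra, the pre-TCR gene, did not pass the test below between the cell types over all time points. Its cTEC mean was above its mTEC mean at 9 of 16 time points, and its samples overlapped between the cell types at D6 and D12. Rag1 measured 0.27, 1.36 and 0.5 FPKM in the 3 cTEC samples at D-2, 6.47, 7.1 and 6.31 at D6, and 7.2, 9.22 and 11.1 at D12. In mTECs Rag1 measured 0.26, 0.71 and 0.25 FPKM at D-2, 2.56, 1.38 and 1.24 at D6, and 1.19, 1.78 and 0.79 at D12. The D6 and D12 values of cTECs were above all those of D-2 and above all those of mTECs, and the 3 NPC samples of cTECs, at 8.51, 3.95 and 1.82 FPKM, also exceeded D-2.

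Dntt was the most abundant early gene. It measured 2.25, 1.6 and 4.11 FPKM in cTECs at D-2, 18.03, 13.78 and 9.35 at D6, and 18.57, 24.89 and 21.35 at D12. In mTECs it measured 0.91, 0.0 and 1.64 FPKM at D-2, 3.9, 5.36 and 3.09 at D6, and 4.26, 3.44 and 4.49 at D12. All D6 and D12 values of cTECs lay above both the D-2 values of cTECs and the values of mTECs at the same time point. Among the single samples, Dntt in cTECs was highest at D2, with 31.7 FPKM, and lowest at D28, with 6.7. Over all 16 time points the mean of Rag1 and of Dntt was higher in cTECs at each one. Rag2 and Ptcra rested on few counts, with medians of 14 and 9 expected counts in cTECs, and Rag2 had no count in 18 of 28 mTEC samples and 7 of 28 cTEC samples.

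Windows around start sites are shown from RefSeq on GRCm38.p6 for Rag1, Rag2, Dntt and Cd8a. These are the early and double-positive genes that were called higher in cTECs over all time points and have 1 window in the table, whereas Themis has 2 windows and Satb1 has 5. Each runs in transcript direction from 250 bases before to 50 bases after the start, and capitals mark every CAGNTG, a form of the E-box that the E proteins of thymocytes bind, read on both strands.
Rag1: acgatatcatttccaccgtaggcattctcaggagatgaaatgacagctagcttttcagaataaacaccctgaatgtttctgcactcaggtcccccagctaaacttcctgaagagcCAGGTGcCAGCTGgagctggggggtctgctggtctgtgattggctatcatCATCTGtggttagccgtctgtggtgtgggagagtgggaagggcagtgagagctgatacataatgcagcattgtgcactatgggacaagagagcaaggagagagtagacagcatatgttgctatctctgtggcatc
Rag2: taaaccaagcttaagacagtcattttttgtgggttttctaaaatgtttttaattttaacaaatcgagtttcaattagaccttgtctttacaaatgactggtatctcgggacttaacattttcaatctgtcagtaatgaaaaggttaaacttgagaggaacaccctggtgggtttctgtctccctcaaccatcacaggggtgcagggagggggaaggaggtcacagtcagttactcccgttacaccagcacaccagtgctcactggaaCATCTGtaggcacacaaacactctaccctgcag
Dntt: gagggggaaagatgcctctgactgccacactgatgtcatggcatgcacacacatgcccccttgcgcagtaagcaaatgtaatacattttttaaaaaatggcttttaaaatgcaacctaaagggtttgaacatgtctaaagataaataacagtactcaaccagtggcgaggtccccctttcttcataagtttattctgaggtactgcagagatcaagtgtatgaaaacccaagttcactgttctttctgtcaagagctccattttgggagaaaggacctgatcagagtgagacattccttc
Cd8a: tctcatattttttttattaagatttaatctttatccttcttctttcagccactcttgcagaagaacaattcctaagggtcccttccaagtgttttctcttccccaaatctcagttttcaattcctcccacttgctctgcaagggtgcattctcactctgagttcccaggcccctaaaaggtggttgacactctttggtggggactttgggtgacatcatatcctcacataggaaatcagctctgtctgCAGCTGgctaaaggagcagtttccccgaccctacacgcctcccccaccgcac
The windows are chr2:101649483-101649782 on the minus strand for Rag1, chr2:101624462-101624761 on the plus strand for Rag2, chr19:41029025-41029324 on the plus strand for Dntt and chr6:71373177-71373476 on the plus strand for Cd8a. CAGNTG occurred 3 times in the Rag1 window, 1 time each in those of Rag2 and Cd8a, and not in that of Dntt. Of 32851 windows of this length, 51.4% held a CAGNTG, and of the 44 windows of the 24 thymocyte genes in the table, 31 did (70.5%). AGGAAG, letters of an ETS-family site searched on both strands, was in 35.4% of all windows and in 20 of these 44 (45.5%). Some genes count several times among the 44 windows, Arpp21 with 9 and Satb1 with 5, so these are not shares of genes. Whether they differ from the shares over all windows was not tested. The 10 genes not in the table are Cd2, Cd28, Cd4, Cd6, Cd8b1, Ets1, Ikzf3, Sh2d1a, Thy1 and Tox.

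Of the double-positive genes, Cd8b1, the beta chain of the CD8 co-receptor, was the most abundant. It measured 3.95, 3.81 and 2.67 FPKM in cTECs at D-2, 16.68, 13.49 and 8.88 at D6, and 25.07, 27.83 and 30.74 at D12, with no overlap between D-2 and the later groups. In mTECs the values were 1.93, 0.0 and 1.5 at D-2, 2.05, 2.55 and 4.39 at D6, and 6.98, 6.6 and 1.26 at D12, all below those of cTECs at the same time point. Satb1, a chromatin organiser high in double-positive cells, measured 3.1, 5.82 and 3.37 FPKM in cTECs at D-2, 17.8, 6.36 and 10.63 at D6, and 8.74, 10.91 and 13.79 at D12. Its D6 and D12 samples were above all D-2 samples. In mTECs Satb1 measured 4.99, 9.68 and 5.14 FPKM at D-2, 5.96, 3.55 and 2.19 at D6, and 5.99, 3.86 and 6.45 at D12, which overlapped each other. The alpha chain Cd8a measured 3.84, 1.59 and 0.55 FPKM in cTECs at D-2 and 12.85, 10.65 and 16.17 at D12, against 0.0, 2.99 and 1.74 in mTECs at D12. Cd8a and Cd3e are shown because the test below called them at D12, a choice made after their values were seen.

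**Figure D2:**
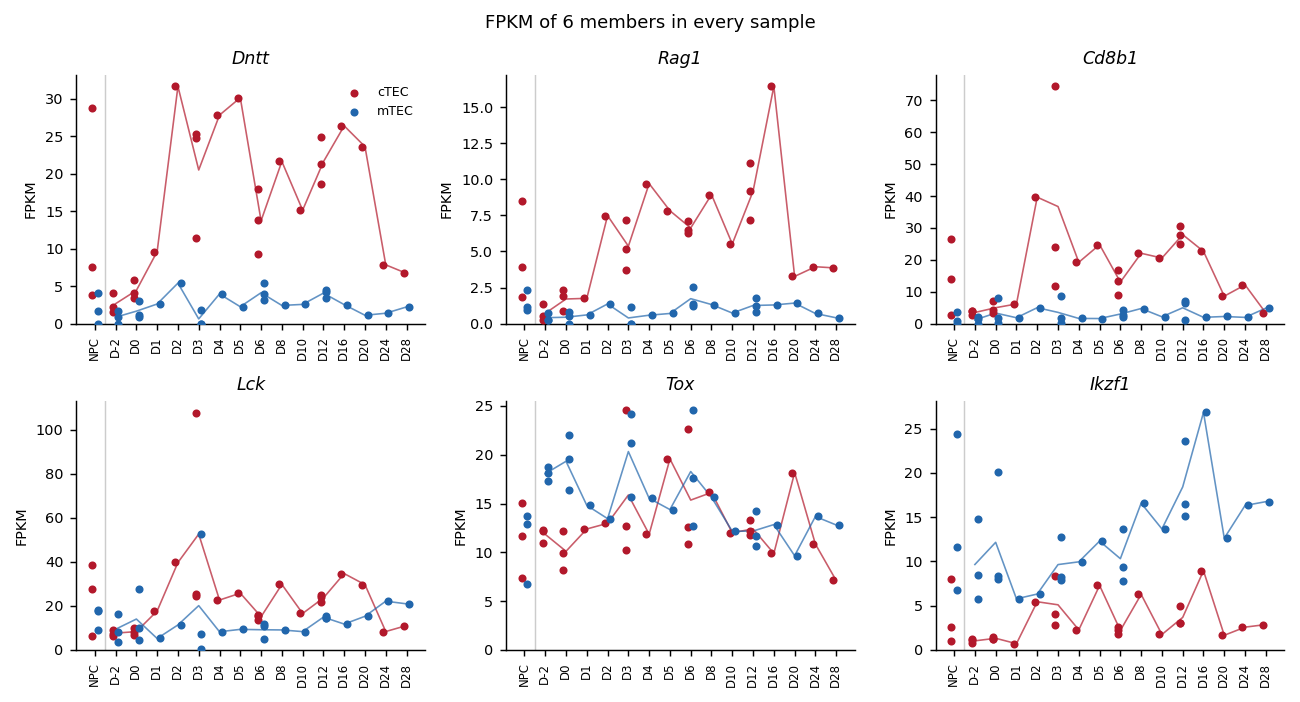
FPKM of Dntt, Rag1, Cd8b1, Lck, Tox and Ikzf1 in every sample, 1 panel per gene, by time point and cell type. Points are samples and lines join time-point means. From D2 to D16 the 15 cTEC samples lie above the highest mTEC sample for Dntt (9.35 against 5.4), Rag1 (3.74 against 2.56) and Cd8b1 (8.88 against 8.79), while Tox overlaps and the mean of Ikzf1 is higher in mTECs at all 16 time points.

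The receptor complex genes were also low in cTECs at D-2. Lck, the kinase that starts T cell receptor signalling, measured 9.07, 7.28 and 6.49 FPKM in cTECs at D-2, 15.54, 16.07 and 13.59 at D6, and 21.91, 23.82 and 25.07 at D12. In mTECs Lck measured 16.35, 8.13 and 3.68 FPKM at D-2, 10.96, 11.68 and 4.82 at D6, and 15.54, 14.68 and 14.39 at D12. The cell types thus overlapped at D-2 and did not overlap at D6 or D12.

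Thy1, the surface protein of all mouse thymocytes, had the highest mean FPKM of the 34 genes, 23.7 over the 56 samples. It measured 4.3, 4.78 and 9.72 FPKM in cTECs at D-2, 20.16, 29.38 and 19.09 at D6, and 39.12, 31.05 and 40.28 at D12. In mTECs it measured 6.73, 15.59 and 14.86 FPKM at D-2, 23.9, 8.21 and 9.74 at D6, and 44.49, 24.29 and 14.19 at D12. The D12 samples of the cell types overlapped. Cd3e, a chain of the CD3 complex, measured 1.02, 0.59 and 0.18 FPKM in cTECs at D-2 and 5.22, 4.04 and 6.34 at D12, against 0.0, 0.98 and 0.0 in mTECs at D12.

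The sum over the genes of mature cells was higher in cTECs at some time points and in mTECs at others. The means of cTECs and mTECs were 27.5 and 16.3 FPKM in NPC, 19.3 and 22.9 at D-2, 16.4 and 35.4 at D0, and 29.3 and 21.6 at D12, with every cTEC sample above every mTEC sample in NPC and at D12. Tox, a nuclear factor needed for CD4 lineage cells, was the most abundant of them and measured 11, 12.19 and 12.33 FPKM in cTECs at D-2, 22.61, 10.81 and 12.63 at D6, and 12.2, 11.74 and 13.26 at D12. In mTECs Tox measured 17.3, 18.09 and 18.77 FPKM at D-2, 12.65, 24.54 and 17.64 at D6, and 11.65, 14.2 and 10.68 at D12. Its cTEC mean was above its mTEC mean at 5 of 16 time points. Cd27, a costimulatory receptor of the TNF receptor family, measured 5.37, 1.86 and 2.62 FPKM in cTECs at D-2, 6.06, 2.21 and 3.76 at D6 and 5.72, 8.57 and 6.14 at D12, and in mTECs 1.19, 2.04 and 1.16 at D-2, 3.19, 1.45 and 1.18 at D6 and 7.07, 0.43 and 0.0 at D12. Cd27 overlaps Vamp1 on the other strand and Sh2d1a lies within Tenm1 on the other strand. Rag1 overlaps B230118H07Rik on the same strand and Rag2 overlaps it on the other, and Coro1a overlaps Bola2 on the other strand. Further genes of the list also overlap annotated genes. The strand setting of the counting was not given in the sources used here, and reads of such pairs may not be told apart.

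The transcription factors split. Tcf7, which sets up the T lineage, measured 6.54, 6.36 and 10.49 FPKM in cTECs at D-2, 21.64, 19.64 and 20.47 at D6, and 27.36, 34.6 and 29.99 at D12, with no overlap. In mTECs Tcf7 stood at 15.55, 13.67 and 10.17 at D-2, 17.2, 8.78 and 6.93 at D6, and 15.94, 20.48 and 15.52 at D12. Ets1, a factor of many lymphocytes, measured 10.5, 8.19 and 5.6 FPKM in cTECs at D-2, 8.8, 10.28 and 19.44 at D6 and 8.62, 7.34 and 9.34 at D12. Its mTEC values were 6.25, 6.15 and 5.97 at D-2, 3.77, 5.95 and 2.79 at D6 and 4.27, 3.79 and 4.96 at D12, below every cTEC sample at D6 and D12. Gata3, a factor of T cells that is also known from epithelia, went the other way, from 16.84, 17.12 and 15.53 FPKM in cTECs at D-2 to 3.72, 4.53 and 3.77 at D6 and 6.52, 5.87 and 9.71 at D12. In mTECs Gata3 measured 17.0, 16.98 and 12.81 at D-2 and 3.31, 5.72 and 3.36 at D6. In both cell types the D-2 samples of Gata3 were above all D6 samples. Gata3 is shown because the test below called it, a choice made after its values were seen.

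Of the genes that all leukocytes share, Ptprc encodes CD45, the antigen of the negative gate, and it was detected at low levels, from 0.41 to 9.69 FPKM in cTECs with a mean of 2.43 and with a mean of 1.25 in mTECs. Coro1a, an actin regulator, measured 11.76, 6.47 and 5.9 FPKM in cTECs at D-2, 12.2, 20.66 and 13.16 at D6 and 24.18, 26.13 and 18.96 at D12, and in mTECs 4.67, 16.55 and 6.09 at D-2, 18.12, 10.7 and 11.16 at D6 and 40.37, 14.4 and 37.55 at D12. The cell types overlapped at all 3 times.

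Ikzf1, the lymphoid factor Ikaros, was lower in cTECs than in mTECs, while its cTEC samples of D6 and D12 were all above those of D-2. It measured 1.06, 0.78 and 1.22 FPKM in cTECs at D-2, 2.3, 1.74 and 2.55 at D6 and 3.04, 3.05 and 4.92 at D12. In mTECs it measured 8.46, 14.75 and 5.74 at D-2, 13.7, 7.8 and 9.42 at D6 and 15.16, 23.61 and 16.49 at D12. It was above its cTEC value in every mTEC sample of these time points, and over all samples the ranges were 0.7 to 8.94 in cTECs and 5.74 to 26.8 in mTECs.

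For the 2 most abundant genes of each group, the NPC and D3 samples of cTECs were as follows. Dntt measured 24.71, 25.36 and 11.43 FPKM at D3, after 28.82, 7.54 and 3.82 in NPC, and Rag1 7.16, 5.19 and 3.74 at D3. Cd8b1 measured 26.39, 13.82 and 2.76 FPKM in NPC and 23.87, 74.37 and 11.85 at D3, and Satb1 12.05, 15.23 and 5.68 in NPC and 10.03, 42.05 and 7.21 at D3. For all 4 the D3 samples were above every D-2 sample, and the NPC samples of Dntt, Cd8b1 and Satb1 overlapped D-2. Lck measured 38.41, 27.73 and 6.28 FPKM in NPC and 25.45, 107.8 and 24.59 at D3, and Thy1 34.17, 32.35 and 13.82 in NPC and 24.88, 25.35 and 39.89 at D3. Tcf7 measured 39.11, 11.6 and 7.64 FPKM in NPC and 28.47, 98.52 and 21.5 at D3. Replicate 2 of D3, the highest here for Cd8b1, Satb1, Lck and Tcf7, is a few-gene library. Coro1a measured 29.39, 11.48 and 6.51 FPKM in NPC and 25.49, 27.25 and 15.77 at D3, and Ikzf1 8.04, 0.95 and 2.53 in NPC and 2.86, 8.31 and 4.11 at D3. Tox measured 11.7, 7.37 and 15.03 FPKM in NPC and 12.71, 24.63 and 10.28 at D3, Cd27 8.34, 3.41 and 1.69 in NPC and 4.08, 0.0 and 5.91 at D3, and Ets1 8.17, 14.87 and 16.35 in NPC and 8.44, 9.37 and 14.97 at D3. These last 3 genes overlapped D-2 in both groups.

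In mTECs replicates 1 and 2 of D3 are few-gene libraries, and several genes had their highest or lowest value there. Lck measured 52.71, 0.18 and 7.42 FPKM at D3 and 18.25, 17.53 and 9.24 in NPC, and Thy1 41.18, 0.0 and 9.57 at D3 and 36.85, 7.83 and 36.25 in NPC. Dntt measured 0.0, 0.0 and 1.87 FPKM at D3 and 4.08, 0.0 and 1.67 in NPC, and Rag1 0.0, 0.0 and 1.17 at D3 and 1.12, 2.31 and 0.93 in NPC. Cd8b1 measured 8.79, 0.13 and 1.6 FPKM at D3 and 0.0, 3.57 and 0.79 in NPC, and Satb1 4.28, 8.92 and 4.87 at D3 and 2.27, 13.29 and 5.16 in NPC. Of these 6 genes only Rag1 in NPC did not overlap D-2. Coro1a measured 15.21, 14.74 and 6.64 FPKM at D3 and 11.64, 9.11 and 14.88 in NPC, and Ikzf1 12.79, 8.27 and 7.86 at D3 and 6.81, 11.59 and 24.45 in NPC. Tcf7 measured 1.73, 14.76 and 8.15 FPKM at D3 and 12.03, 10.95 and 18.58 in NPC, and Ets1 5.0, 17.09 and 17.71 at D3 and 4.07, 6.52 and 10.16 in NPC. Tox measured 15.65, 24.15 and 21.17 FPKM at D3 and 6.78, 12.87 and 13.77 in NPC, where it was below every D-2 sample, and Cd27 1.11, 0.0 and 1.19 at D3 and 0.0, 0.0 and 0.75 in NPC, also below D-2.

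Each of the remaining genes was less abundant than the 2 leading genes of its group, and most had samples without a count. Averaged over the 28 samples of each cell type, the CD3 chains Cd3d and Cd3g stood at 7.34 and 9.11 FPKM in cTECs and 1.94 and 2.84 in mTECs, the zeta chain Cd247 at 3.51 and 1.57, and the adaptor Lat at 8.54 and 1.67. The kinase Zap70 stood at 2.16 FPKM in cTECs and 0.646 in mTECs, and the small GTPase Rhoh at 3.81 and 0.801. The co-receptor Cd4 was nearly even at 5.15 and 4.17 FPKM, as was Ikzf3, the Ikaros relative Aiolos, at 1.90 and 1.45, while Arpp21 stood at 2.76 and 1.66. For Cd4 and Arpp21 the order of the cell types changed with time. At D-2 every cTEC sample was below every mTEC sample, at D6 they overlapped, and at D12 every cTEC sample was above. In cTECs the D6 and D12 samples of both genes were above all D-2 samples. Of the genes of mature cells, the adhesion receptor Cd2 stood at 3.37 and 1.08 FPKM, the signalling receptors Cd5 at 1.08 and 1.25 and Cd6 at 2.24 and 1.41, and the costimulatory receptor Cd28 at 1.63 and 1.54. Sh2d1a had no count in 19 of 28 mTEC samples and in 7 of 28 cTEC samples. Bcl11b, which fixes T cell commitment, was detected in all samples, at 4.44 FPKM in cTECs and 5.93 in mTECs.

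**Figure D3:**
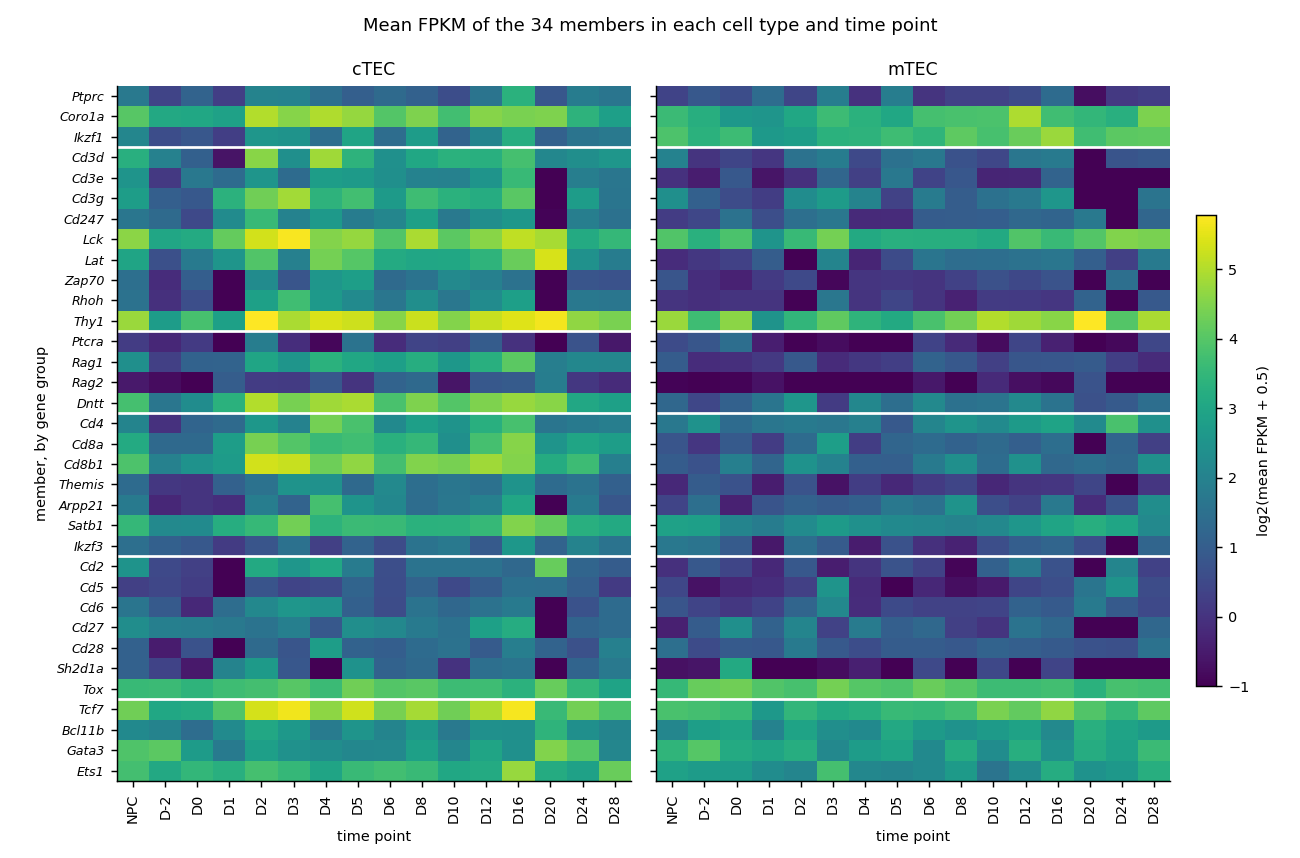
Mean FPKM of the 34 genes at each time point in cTECs and mTECs, 1 row per gene ordered by group with white lines between groups and 1 column per time point, coloured as log2(mean FPKM + 0.5) from dark for low to yellow for high. Dntt, Rag1, Cd8a and Cd8b1 are darker at D-2 than from D2 on in cTECs and dark in the mTEC columns, whereas Ikzf1 is brighter in mTECs.

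By the number of genes whose groups did not overlap, cTECs changed after birth across most of the list. At D6, 21 of 34 genes (61.8%) had all 3 cTEC samples above all 3 at D-2, where 12.6% of the 15845 genes tested did, and 1 gene, Gata3, had all 3 below (12.3% of genes tested). At D12, 23 genes (67.6%) did so, against 13.4%, and at D3, 15 genes (44.1%), against 7.07%. These comparisons share the D-2 samples. The median log2 fold change of the 34 genes was 1.45 at D6 and 2.5 at D12, against -0.02 and 0.03 over all genes tested. By group, the medians at D6 and D12 were 2.99 and 3.46 for the early genes, 2.79 and 3.26 for the double-positive genes, 2.87 and 3.39 for the receptor complex genes, 0.36 and 1.93 for the genes of mature cells, and 0.33 and 0.47 for the transcription factors.

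Few single genes passed the test, limma-voom with a 2-fold difference or more and, over all genes tested, a p adjusted by Benjamini and Hochberg of 0.01 or less. At D6 against D-2 in cTECs, 2 of 34 thymocyte genes passed, against 1.84% of all genes. Themis, which sets receptor signalling strength in double-positive cells, measured 0.0, 0.07 and 1.65 FPKM at D-2 and 2.81, 6.62 and 2.74 at D6, with no overlap. It rose by a log2 fold change of 5.26 (SE 1.06, adjusted p = 0.00543), and Gata3 changed by -2.0 (SE 0.43, adjusted p = 0.00826). At D12 only Themis passed, of all genes 0.827%, with 2.84, 1.01 and 3.3 FPKM, which overlapped the highest D-2 sample, and a log2 fold change of 5.41 (SE 1.05, adjusted p = 0.00655). For Rag1 the log2 fold changes were 3.43 (SE 1.06, adjusted p = 0.0642) at D6 and 3.87 (SE 1.06, adjusted p = 0.0612) at D12, and for Dntt 2.55 (SE 0.93, adjusted p = 0.121) and 3.06 (adjusted p = 0.0979). At an unadjusted p under 0.05, 18 of 34 genes differed at D6, where 19.6% of all genes did, 16 of the 18 higher and Gata3 and Ikzf3 lower. At D12 it was 22, where 12.3% of all genes did, 21 of them higher and Gata3 lower. At D6 the Themis call was lost without cTEC D6 replicate 2 (adjusted p = 0.0206), D-2 replicate 1 (0.0573) or D-2 replicate 2 (0.0559), and that of Gata3 without any of 5 samples, namely D6 replicates 1 (0.0499), 2 (0.0423) and 3 (0.0131) and D-2 replicates 1 (0.0314) and 2 (0.0588). At D12 the Themis call was lost without D12 replicate 1 (0.0223) or 3 (0.0182) or D-2 replicate 1 (0.0879) or 2 (0.0721). Without the 4 few-gene libraries, 1 of which is a D3 sample of this fit, Themis had an adjusted p of 0.0145 at D6 and 0.0215 at D12.

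At D3 against D-2, 0 of 34 genes passed limma-voom, with 0.151% of all genes. At an unadjusted p under 0.05 there were 15 thymocyte genes, with 19.1% of all genes, and 0 passed by edgeR and 10 by DESeq2, which called 1.22% of all genes. Pregnancy itself was tested by D-2 against NPC. There 0 of 34 genes passed in cTECs by limma-voom, with 0.158% of all genes. At an unadjusted p under 0.05, 11 thymocyte genes differed, all lower at D-2, with 8.61% of all genes, and 0 passed by edgeR and 4 by DESeq2, which called 0.757% of all genes. In this comparison 7 genes (20.6%) had all D-2 samples below all NPC samples, against 7.56% of genes tested, and the median log2 fold change was -1.23 (3 genes positive and 31 negative) against 0.02 over all genes.

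The same comparisons were made in mTECs. Of the 34 genes, 33 reached the mean FPKM of 0.5 that was required. At D6, 6 of 34 genes (17.6%) had all 3 samples above all 3 at D-2, against 10.9% of genes tested, and at D12, 5 genes (14.7%), against 11.9%. The 6 genes at D6 include Rag2, which did not reach the required mean and so is not among the genes tested. The median log2 fold changes were 0.65 and 0.59, against -0.03 and -0.02 over all genes. At D6 0 thymocyte genes passed limma-voom, with 0.113% of all genes, 2 at an unadjusted p under 0.05 (7.63% of all genes), and 0 by edgeR and 0 by DESeq2. At D12 0 passed, with 0.597% of all genes, 8 at an unadjusted p under 0.05 (15.3%), and 0 by edgeR and 0 by DESeq2. At D3 0 passed, with 0.163% of all genes, 3 at an unadjusted p under 0.05 (14.5%), and 0 by edgeR and 1 by DESeq2, which called 0.919% of all genes. At D-2 against NPC 1 gene passed by limma-voom, with 0.648% of all genes. This was Gata3, with 18.16, 8.04 and 5.08 FPKM in NPC mTECs, then 17.0, 16.98 and 12.81 in late pregnancy, and its log2 fold change was 1.63 (SE 0.32, adjusted p = 0.00868). Its samples overlapped, and its call was lost without D-2 replicate 1 (0.0343), 2 (0.0249) or 3 (0.0161) or NPC replicate 1 (0.0322) or 2 (0.0630).

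The difference between the cell types in the change from D-2 to D6 was tested as an interaction. Here 0 thymocyte genes passed by limma-voom, with 0.0109% of all genes, 3 at an unadjusted p under 0.05 (5.30% of all genes), and 0 by edgeR and 0 by DESeq2. A larger change in cTECs than in mTECs was therefore not shown for any single gene. For late regrowth, the 4 samples of D16 to D28 were set against the 18 of D0 to D12. In cTECs 0 thymocyte genes passed limma-voom, with 1.41% of all genes, 2 at an unadjusted p under 0.05 (27.2%), and 0 by edgeR and 0 by DESeq2, and the median log2 fold change was -0.37 against -0.04 over all genes. In mTECs 0 passed, with 0.0620% of all genes, 6 at an unadjusted p under 0.05 (3541 of 17743 genes tested), and 0 by edgeR and 0 by DESeq2. The early genes of cTECs summed to 44.7 FPKM in the D16 sample, 30.1 in that of D20, 13.5 in that of D24 and 11.1 in that of D28.

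**Figure D4:**
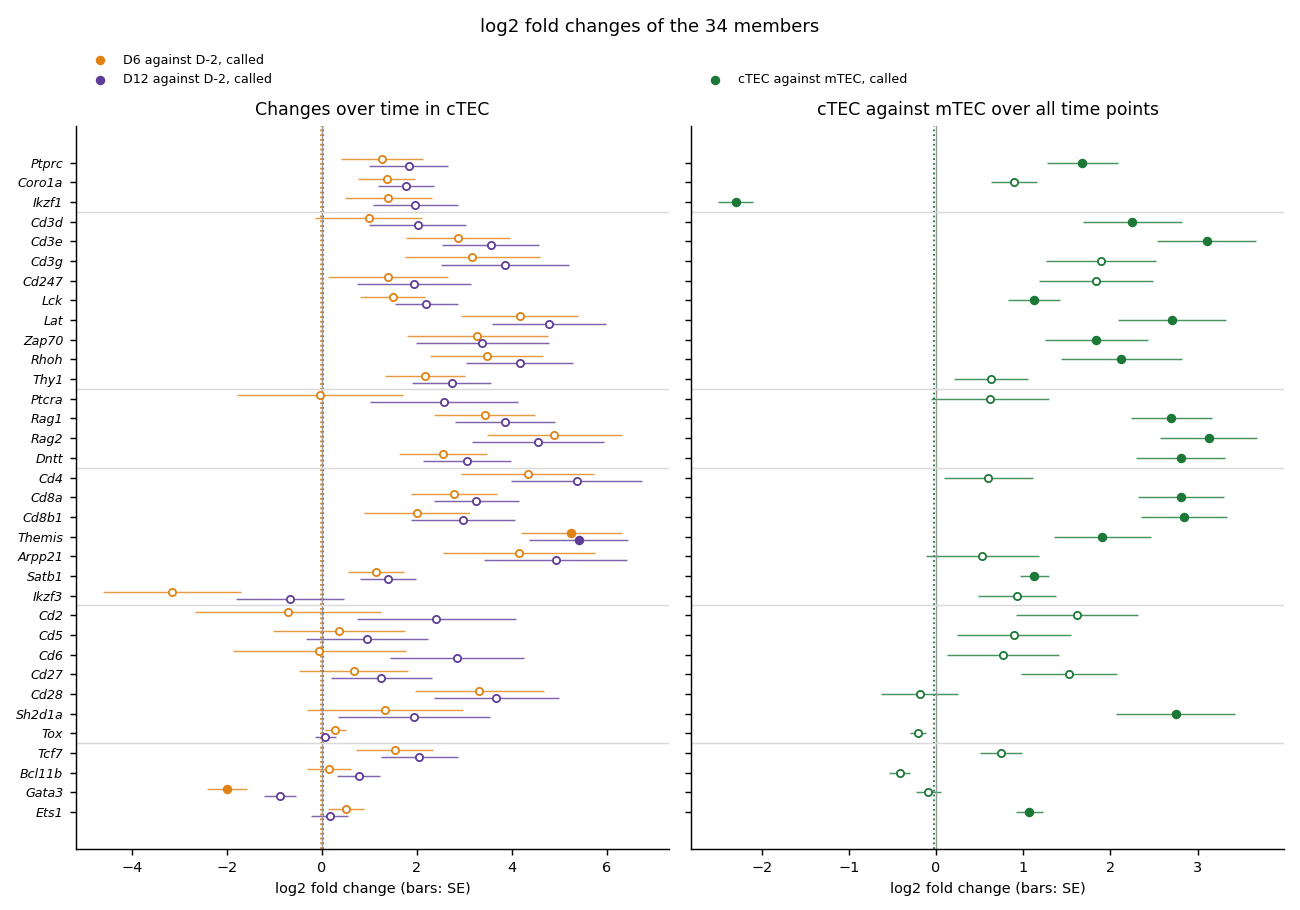
Log2 fold changes of the 34 thymocyte genes from limma-voom, in cTECs at D6 and D12 against D-2 on the left and between cTECs and mTECs over all time points on the right, with the standard error of each as a bar. Filled points passed the test, open points did not, and dotted lines are medians of all genes tested. At D12 32 of 34 points lie above 0, while Gata3 at D6 (-2.0) and Ikzf1 between the cell types (-2.30) lie below it and passed.

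Set against mTECs, fewer thymocyte genes stood apart at D-2 than at D6 and D12, and this difference between time points was tested per gene only by the interaction above. At D-2, 3 of 34 genes had all 3 cTEC samples above all 3 mTEC samples and 6 had all below, where the samples of 28.6% of genes tested did not overlap in either direction. At D6, 17 genes had all cTEC samples above, against 15.0%, and at D12, 18 genes, against 14.6%. The median log2 fold change of the 34 genes between cTECs and mTECs was -0.02 before birth (D-2), 1.11 (D6) and 2.35 (D12), whereas over all genes tested it was -0.05, -0.17 and 0.14. At D-2, 0 genes passed limma-voom, with 1.87% of all genes, 7 at an unadjusted p under 0.05 (17.9%), and 1 by edgeR and 1 by DESeq2, which called 1.79% and 3.43% of all genes. At D6, 1 gene passed, with 4.34% of all genes, which was Ikzf1, lower in cTECs by a log2 fold change of -2.34 (SE 0.60, adjusted p = 0.00862). Its call was lost without cTEC D6 replicates 1 (0.0405), 2 (0.0991) or 3 (0.0208) or mTEC D6 replicates 1 (0.167) or 3 (0.0135).

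At D12, 8 of 34 genes passed between the cell types, with 10.4% of all genes in either direction. Of these, 7 were higher in cTECs, where 4.96% of all genes were. They were Rag1 (log2 fold change 2.73, SE 0.58, adjusted p = 0.000807), Rag2 (4.93), Dntt (2.57, SE 0.61, adjusted p = 0.00215), Cd8a (4.65, SE 1.06), Satb1 (1.43, SE 0.30), Cd3e (6.02, SE 1.32) and Lck (1.2, SE 0.34, adjusted p = 0.00935). Ikzf1 was lower in cTECs, by -2.60 (SE 0.40, adjusted p = 1.2e-05). The calls of Cd8a and Ikzf1 were kept without any 1 of the 6 samples. Those of Rag1, Dntt and Satb1 were lost without mTEC D12 replicate 2 (0.0390, 0.139 and 0.0453), that of Cd3e without mTEC D12 replicate 1 (0.0179) or 3 (0.0236), that of Rag2 without cTEC D12 replicate 1 (0.0233) or 3 (0.0254) or mTEC D12 replicate 1 (0.0386) or 3 (0.0511), and that of Lck without any 1 of the 6 (0.0135 to 0.114). With DESeq2 size factors the log2 fold changes of the 34 genes at D12 were lower by a median of 0.24, and none changed sign.

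The cell types were also compared over all 56 samples, with time point as a term. This comparison was added after the data had been seen. By limma-voom 17 of 34 genes passed, with 20.8% of all genes in either direction, and 16 of them were higher in cTECs, with 4.39% of all genes. The median log2 fold change of the 34 genes was 1.32 against -0.03 over all genes tested. Of the early genes 3 of 4 were higher, Rag1 by 2.70 (SE 0.46, adjusted p = 2.76e-06), Rag2 by 3.13 (SE 0.56) and Dntt by 2.81 (SE 0.51, adjusted p = 8.59e-06). Of the receptor complex genes 6 of 9 were higher, among them Cd3e by 3.10 (SE 0.57), Lat, an adaptor of the receptor, by 2.71 and Lck by 1.12. Of the double-positive genes 4 of 7 were higher, namely Cd8b1 by 2.85 (SE 0.49, adjusted p = 3.37e-06), Cd8a by 2.81 (SE 0.50), Themis by 1.91 and Satb1 by 1.13.

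Of the genes of mature cells 1 of 7 was higher over all samples, Sh2d1a, the adaptor SAP, by 2.75, and of the transcription factors 1 of 4, Ets1 by 1.07. Ptprc was higher in cTECs by 1.68, and Ikzf1 was lower by -2.30 (SE 0.20). The remaining 3 genes higher in cTECs, Cd3d, Zap70 and Rhoh, are also of the receptor complex. Leaving out 1 sample at a time gave 14 to 19 genes. The call of Lck was lost without mTEC D-2 replicate 3 (adjusted p = 0.0140) and that of Ets1 without mTEC D10, where its log2 fold change was 0.96, while Zap70 kept its call in 24 of 56 such fits and Rhoh in 16. Without the 4 few-gene libraries 18 genes passed.

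As a share of the summed FPKM of the 34 genes, the makeup of cTEC samples shifted between D-2 and D12. The early genes held 3.62% ± 1.35 at D-2 and 10.6% ± 1.56 at D12 (SD, n = 3), the double-positive genes 11.97% ± 1.77 and 21.5% ± 1.34, the receptor complex genes 22.4% ± 2.76 and 33.3% ± 3.38, the genes of mature cells 18.4% ± 1.55 and 9.21% ± 0.326, and the transcription factors 34.3% ± 1.21 and 16.1% ± 0.910. The D-2 and D12 samples did not overlap in any of these 5 shares. In mTECs at D12 the early genes held 3.29% ± 0.601, the double-positive genes 10.9% ± 1.31, the receptor complex genes 28.4% ± 6.27, the genes of mature cells 11.4% ± 0.753 and the genes of all leukocytes 26.1% ± 3.70, against 9.27% for the last of these in cTECs. The lower shares of mature genes and of transcription factors in cTECs at D12 came with sums that were not lower than at D-2, and Tox and Gata3 held a large part of both sums at D-2.

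Other genes of each stage, which are no part of the 34, gave a mixed picture. Of 8 genes of double-negative thymocytes, 5 had a mean under 1 FPKM in cTECs, and the most abundant, Notch3, Il2ra and Dtx1, had means of 5.08, 4.30 and 6.23 FPKM in cTECs and 9.29, 13.4 and 3.58 in mTECs. Over all time points 4 of the 5 that were tested were lower in cTECs by limma-voom. Further genes of double-positive cells included Cd1d1 and Trac. The receptor alpha constant gene Trac had a lowest, median and highest value of 0.0, 0.2 and 0.34 FPKM in cTECs at D-2 and of 6.34, 7.11 and 9.7 at D12, a log2 fold change of 5.22 (adjusted p = 0.0596 by limma-voom). The lipid-presenting Cd1d1 had a mean of 13.1 FPKM in cTECs at D-2 and 9.10 at D12. Of 15 genes of single-positive cells, 7 had a mean under 1 FPKM in each cell type. The most abundant, Klf2, measured 182.3 FPKM on average in cTECs and 92.7 in mTECs, Zbtb7b 12.7 and 12.6, and Runx3 2.53 and 17.0. Over all time points 1 of 13 tested was higher and 6 were lower in cTECs. Their sum in cTECs was 213.6 FPKM at D-2 and 132.0 at D12, with every D12 sample below. Klf2 is the largest part of this sum, which therefore says little about the other genes of single-positive cells.

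The constant regions of the T cell receptor, summed over 7 genes, followed the receptor complex. In cTECs they summed to 32.0 ± 0.36 FPKM at D-2, 102.7 at D6, 135.8 at D12, 171.5 at D16 and 40.8 at D28, which at D12 is 4.25 times the D-2 mean, and in mTECs they lay between 9.14 and 50.7. Trbc2, a beta constant region, measured 10.25, 11.33 and 19.03 FPKM from lowest to highest in cTECs at D-2 and 81.89, 90.83 and 107.8 at D12, with no overlap. In mTECs at D12 Trbc2 measured 1.99, 11.85 and 20.42. Trbc1 and Trbc2 are nearly identical, so the split of reads between them is uncertain. Over all time points 3 of 6 constant regions that were tested were higher in cTECs by limma-voom.

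Markers of other cells moved with these results in part. The 7 cTEC genes summed to 1734 ± 483 FPKM in cTECs at D-2, to 10370 ± 548 at D6 and to 9817 ± 342 at D12, and 6 of 7 rose at both times by limma-voom, so that cTEC genes and thymocyte genes were both low in the same D-2 samples. General TEC genes stood at 2.58 times their D-2 mean at D6, with every sample above. In the same D6 samples the mTEC genes stood at 0.458 times, mesenchymal genes at 0.416 times and B cell genes at 0.193 times their D-2 means, with every D6 sample below. At D12 these 3 lists stood at 0.868, 0.873 and 0.575 times, and their samples overlapped those of D-2. Over all cTEC samples the mesenchymal sum was mostly Dcn, with a mean of 258.8 FPKM against 2.23 for Col1a2 and 1.25 for Col1a1. The mTEC sum was mostly Ccl21a, at 4004 FPKM against 327.7 for Krt14. The B cell sum was low, with means of 5.31 FPKM at D-2 and 1.02 at D6. The part of these lists in the result was not tested. Genes of macrophages and dendritic cells, 17 genes led by Lyz2, Fcer1g and Aif1, summed to between 0.0 and 52.5 FPKM in cTECs and between 23.9 and 258.0 in mTECs, where 173.6 was the mean at D12 and 104.1 at D-2. Over all time points 10 of 14 tested were lower in cTECs, the direction of Ikzf1, and their part in the level of Ikzf1 was not tested. Genes of B cells summed to 2.99 FPKM on average in cTECs and 10.6 in mTECs, genes of NK cells to 2.52 and 1.92, and genes of erythroid cells to 2.01 and 25.0.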

How the data were processed

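RNA was measured in sorted cTECs and mTECs of the groups named above. The authors trimmed reads with Trimmomatic 0.35, aligned them to GRCm38 with STAR 2.5.1b and quantified genes with RSEM 1.2.28, and deposited expected counts, TPM and FPKM per sample. The annotation release and the strand setting of the counting were not given in the sources used here. Genes were matched by Ensembl identifier to GENCODE symbols for 50376 of 50600 identifiers. The 34 genes and the other gene lists were chosen with earlier results of these data known.

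Expected counts, rounded to integers, were tested with limma-voom (limma 3.58.1, TMM scaling from edgeR 4.0.16, R 4.3.3). Genes with a mean FPKM under 0.5 across a cell type's 28 samples were left out, and where types were compared those under it in both. A call needed a 2-fold difference and a p, adjusted by Benjamini and Hochberg, of 0.01 or less. Time comparisons were fitted on the 18 samples of each cell type at the 6 replicated time points and cell-type comparisons on all 36 of these, while late against early used the 22 samples of each type from D0 on. The fit over all 56 samples and the alternative without the 4 few-gene libraries were chosen after seeing the data. The steps were checked on simulated data. Values in every sample of NPC, D-2, D3, D6 and D12 are given for the 2 genes of each group with the highest mean FPKM and for any gene called in most comparisons, of which there was none, and other genes with values were chosen after these were seen. Alternatives were edgeR, DESeq2 1.42.0, limma on log2(FPKM + 0.5) or log2(FPKM + 0.1), DESeq2 size factors, quality weights, no filter, an adjusted p of 0.05, a replicate block, only the compared samples, and leaving out samples. Depth limits genes of few counts. In the fits on the replicated time points, p-values measure the spread between mice. In late against early the spread also holds differences between days. In the fit over all 56 samples it also holds differences between time points in how the cell types compare.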

Additional observations from a re-analysis of the deposited data

Results flagged for a closer look

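Dixon's ratio was computed for the 34 genes in the 4 late samples (D16, D20, D24 and D28) of each cell type, 68 tests in all. In 11 of them 1 sample stood apart from the other 3. The cut-off gives about 1 in 20 for independent draws from 1 normal distribution. These 4 samples are of different days and several genes share a library, so the count was not read against that rate. Where the other 3 are at 0.0, any value above it gives a ratio of 1.0. In cTECs the D16 sample stood apart for 5 genes: Rag1 at 16.4 FPKM (others 3.27 to 3.94), Cd8a at 23.0 (5.23 to 7.48), Cd4 at 13.5 (2.59 to 3.27), Cd3d at 13.3 (3.89 to 5.38) and Ikzf1 at 8.94 (1.65 to 2.86). The cTEC D20 sample, a library with few detected genes, stood apart for Cd2 at 18.2 FPKM (1.46 to 1.95) and Bcl11b at 10.2 (3.69 to 4.75). In mTECs the D16 sample stood apart for Cd3e at 1.75 FPKM and Sh2d1a at 0.81, both at 0.0 in the other 3, the D20 sample for Rag2 at 1.18 (0.0 to 0.05), and the D28 sample for Cd8b1 at 4.84 (1.94 to 2.22).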

How the results depend on the processing

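The number of the 34 genes called by limma-voom moved under several alternatives, and the cause was not tested. In cTECs at D6 against D-2 (2 genes) it was 5 by DESeq2, 1 by edgeR, by limma on log2(FPKM + 0.5), on log2(FPKM + 0.1), with quality weights and without the 4 few-gene libraries, and 0 with no filter and with only the compared samples. At D12 (1 gene) it was 7 by DESeq2, 2 by edgeR, 2 on log2(FPKM + 0.5), 3 at an adjusted p of 0.05, 6 with quality weights, 8 with only the compared samples, and 0 with no filter and without the few-gene libraries. DESeq2 gave 10 at D3 and 4 at D-2 against NPC, both from 0. In mTECs at D-2 against NPC (1 gene) it was 2 at an adjusted p of 0.05 and 0 by edgeR, DESeq2, both limma fits on FPKM, DESeq2 size factors, quality weights, the replicate block, without the few-gene libraries and with only the compared samples. From 0 in mTECs, DESeq2 gave 1 at D3, quality weights 1 at D6 and 1 at D12, and at D12 an adjusted p of 0.05 gave 1 and no filter 2. Between the cell types it rose from 0 at D-2 to 1 by edgeR, DESeq2 and both limma fits on FPKM and to 2 with quality weights. At D6 (1 gene) it was 2 by DESeq2, 7 with quality weights, 3 with only the compared samples and 0 by both limma fits on FPKM, with DESeq2 size factors and with no filter. At D12 (8 genes) it was 13 at an adjusted p of 0.05, 1 by edgeR, 2 by DESeq2, and 4 and 1 on log2(FPKM + 0.5) and log2(FPKM + 0.1). Over all time points (17 genes) it was 11 by edgeR. Leaving out 1 sample gave 0 to 2 at D6 and 0 to 1 at D12 in cTECs, 0 to 1 in mTECs at D-2 against NPC, and between the cell types 0 to 1 at D6, 4 to 8 at D12 and 14 to 19 over all time points. Late against early and the interaction stayed at 0 under every alternative run. Without Thy1, the shares at D12 were 24.3% for double-positive and 10.4% for mature genes in cTECs and 12.8% and 13.3% in mTECs. No called value changed direction under the alternatives run.

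The labels do not say that a number marks a mouse or batch, and same-numbered samples did not deviate together throughout. The correlation of deviations between cTECs and mTECs ran from -0.172 to 0.095 over 16 pairs with the same number in the title and from -0.104 to 0.287 over 18 pairs with the same replicate number (1 over 0.1), and within a cell type 10 of 90 pairs across time points with the same replicate number were over 0.1. With the replicate block 2, 1 and 0 genes passed at D6 and D12 in cTECs and at D-2 against NPC in mTECs, and between the cell types 1 at D6 and 7 at D12. With the number in the title as a block, 16 passed over all time points.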
